A study of Mus musculus with 22 samples.

Results

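Immediate early genes are the first to be transcribed when a resting or arrested cell receives a growth or stress signal, because the factors that switch them on are already in the cell and need only be modified. Serum response factor with its Elk and Mkl partners, and CREB, read signals of the MAP kinase pathway at their promoters. In erythroid progenitors such signals come from kit ligand and erythropoietin, and several immediate early products are transcription factors that pass the signal on while others shut it down. RNA polymerase II (PolII) peaks at 10 of these genes were followed here from prometaphase into G1. The genes were listed by symbol, with no measured value in the rule, although earlier results of these data were known when the list was drawn up. They were Fos, Fosb, Jun, Junb, Jund and Atf3, which encode basic leucine zipper proteins of the AP-1 and ATF families, Egr1, a zinc finger transcription factor, Ier2, a nuclear protein, Dusp1, a phosphatase that inactivates MAP kinases, and Zfp36, which binds AU-rich elements and hastens mRNA decay. These are 10 of 22208 protein-coding genes of GENCODE vM1 (mm9), and each was read as the annotated gene with 2 kb added at either end.

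The cells were G1E-ER4, a subline of the GATA1-null mouse proerythroblast line G1E, with an auxin-inducible degron and mCherry fused to the CTCF of both alleles. A retrovirus supplied the TIR receptor that auxin needs, together with GFP. The control cells carry these changes as well. The study reports that G1E-ER4 cells can be induced to differentiate terminally along the erythroid line, and its methods name no such induction for these samples. Nocodazole at 200 ng/ml arrested the cells in prometaphase, auxin was given to the treated cells during the arrest and after release, and cells were sorted by DNA content, a mitotic phospho-epitope and mCherry. Of 22 samples, 18 were PolII ChIP-seq libraries with a peak list each and 4 were input chromatin, 1 per stage. Control and auxin groups held 2 libraries each in prometaphase (0 h), early-G1 (1 h after release) and late-G1 (4 h), and 3 each in mid-G1 (2 h), which gives 4 prometaphase and 14 post-mitotic libraries. These groups follow the sample labels. The study's own list of peak calls names late-G1 control replicate 1 but no late-G1 auxin replicate 1, unlike the labels. It also reports that 1 late-G1 replicate was removed for a technical error. The study describes its replicates as biological, but the labels do not say whether they came from separate cultures, so p-values measure the spread between these libraries, which may be technical. Degradation acts on the CTCF protein, so a PolII peak list holds no check of it. The 8 erythroid progenitor markers chosen (Kit, Gata2, Tal1, Lmo2, Epor, Nfe2, Gfi1b, Zfpm1) had a peak in all 14 post-mitotic libraries, while 7 of 10 markers of other cell types had none in any. The exceptions were Cd79a and Csf1r, with a peak in 14 libraries each, and Pax5, with a peak in 1.

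A prometaphase list held 2414 to 3918 peaks and a post-mitotic list 50594 to 117125. The relative depth, recovered from the lists as reads per kb of genome, was 4.54 to 13.3. It was 4.94 to 5.95 in prometaphase and 7.53 to 11.8 in early-G1, without overlap. Mid-G1 control 1 was the shallowest library, and it had the lowest covered share of the 14 post-mitotic libraries at 8 of the 9 genes that had any peak. Duplicate reads had been removed, and the highest pileup of a post-mitotic list was 260 to 351 reads, so the strongest genes here lie not far from the top of the scale. In bulk chromatin, fewer cells with PolII at a gene and less PolII per cell cannot be told apart.

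RefSeq promoter windows of 300 bases (250 before and 50 after the start, mm9) were found for 8 of the 10 genes, and none for Egr1 and Ier2. Those of Fos, Junb, Dusp1, Zfp36 and Jund are shown up to the base before the GENCODE start, because they hold the response elements found or, for Jund, because the PolII summit did not lie there. Capitals mark the matches to the CArG box, the site of serum response factor, to the cAMP response element TGACGTCA and to TATAAA. Each motif was searched on both strands and only as a full match. Near matches are therefore not marked, and sites outside the windows were not searched, so a gene without a match here may still have such an element.
Fos, chr12:86814590-86814839, plus strand: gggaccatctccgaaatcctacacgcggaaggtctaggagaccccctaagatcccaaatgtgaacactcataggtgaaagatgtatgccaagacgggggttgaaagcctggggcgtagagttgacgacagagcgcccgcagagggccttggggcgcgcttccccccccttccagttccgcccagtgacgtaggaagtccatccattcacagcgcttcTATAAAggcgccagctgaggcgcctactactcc
Junb, chr8:87502618-87502897, minus strand: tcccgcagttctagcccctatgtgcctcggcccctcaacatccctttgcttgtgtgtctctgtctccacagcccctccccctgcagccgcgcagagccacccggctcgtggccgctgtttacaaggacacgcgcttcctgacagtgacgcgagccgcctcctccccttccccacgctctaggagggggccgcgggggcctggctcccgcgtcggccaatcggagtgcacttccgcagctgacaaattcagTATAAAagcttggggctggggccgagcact
Dusp1, chr17:26645465-26645667, minus strand: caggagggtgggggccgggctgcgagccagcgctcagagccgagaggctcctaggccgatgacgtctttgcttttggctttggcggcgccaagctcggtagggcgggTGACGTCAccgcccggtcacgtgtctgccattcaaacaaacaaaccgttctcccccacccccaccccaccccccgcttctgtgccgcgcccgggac
Zfp36, chr7:29164275-29164497, minus strand: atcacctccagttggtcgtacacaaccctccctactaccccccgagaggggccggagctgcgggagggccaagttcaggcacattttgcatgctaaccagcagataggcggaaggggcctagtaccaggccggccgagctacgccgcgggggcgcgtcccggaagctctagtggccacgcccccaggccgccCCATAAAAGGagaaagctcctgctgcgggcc
Jund, chr8:73221388-73221637, plus strand: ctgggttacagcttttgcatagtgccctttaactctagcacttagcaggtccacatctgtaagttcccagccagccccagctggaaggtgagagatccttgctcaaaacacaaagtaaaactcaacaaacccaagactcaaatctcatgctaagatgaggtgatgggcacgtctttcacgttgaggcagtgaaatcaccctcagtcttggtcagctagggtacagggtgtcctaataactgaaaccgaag

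A CArG box was found in the window of Zfp36 alone of the 8, at −58 to −49 from the RefSeq start, sharing 1 base with a GGGCGG box, and in 1.63% of the 32851 RefSeq promoters. The cAMP response element was found in the window of Dusp1 alone, at −143 to −136, and in 1.79% of promoters. TATAAA was found in Fos at −33 to −28 and in Junb at 1 to 6, where the RefSeq start lies at −30 from the GENCODE start, and in 13.6% of promoters. The AP-1 site TGANTCA was in none of the 8 and in 7.81% of promoters, CCAAT in 3 of the 8 and 37.4%, and GGGCGG in 6 of the 8 and 35.7%. These matches describe the letters of these windows and are not evidence of binding. The GC content of the 8 windows ranged from 46.7% in Jund to 68.3% in Fosb, beside a median of 52.7% over all promoters.

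Fos lies on the plus strand at chr12:86814840-86818223, Jund on the plus strand at chr8:73221638-73224515 and Egr1 on the plus strand at chr18:35020861-35024638. The others lie on the minus strand: Fosb at chr7:19888070-19895394, Zfp36 at chr7:29161803-29164274, Jun at chr4:94715725-94718913, Junb at chr8:87500811-87502617, Ier2 at chr8:87185230-87186751, Dusp1 at chr17:26642535-26645464 and Atf3 at chr1:192994175-193007219. Small predicted genes overlap the windows of Jund (Gm11175) and Egr1 (Gm17507), and Prdx2 ends 77 bp outside the window of Junb, so peaks that run across these ends may include PolII of the neighbor. Separate upstream peaks also reached into the windows of Ier2, Zfp36, Junb and Jund, and further ones lay upstream of Egr1 and Dusp1. In early-G1 auxin 1 the strongest upstream summit lay at −1415 bp (fold enrichment 53.1) from the start of Ier2 and at −2799 bp (21.7) at Zfp36. It lay at −1620 bp (11.1) at Junb and at −2017 bp (10.2) at Jund. The covered share counts the part of such upstream peaks inside the window, and what they belong to was not tested.

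A PolII peak was present in the window of 7 of the 10 genes in all 14 post-mitotic libraries, beside 45.2% of all protein-coding genes. These were Fos, Junb, Jund, Egr1, Ier2, Dusp1 and Zfp36. Fosb and Jun had a peak in 13 of 14, Fosb lacking one in mid-G1 control 1 and Jun in early-G1 control 2. Atf3, a stress-induced factor, had no peak in any of the 18 libraries. The lowest pileup called in a post-mitotic list was 3 to 9 reads and the weakest peak of each list had a −log10 q-value of 2.01 to 2.15, so PolII at Atf3 below those levels would not be listed. A peak lay over the annotated transcription start site (TSS) in all 14 libraries at 6 of the 10 genes, beside 28% of all genes. The 6 are the genes above without Jund, which had a peak over its annotated start in 4 of 14.

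The same 7 genes carried a peak in all 4 prometaphase libraries, beside 5.14% of all genes, whereas Fosb, Jun and Atf3 had none in any of the 4. Among genes with a peak in prometaphase, 1735 to 2692 per library, Junb stood near the top. Its fold enrichment over local background was 29.0 and 28.1 in control and 28.6 and 26.2 in auxin libraries, from pileups of 52, 54, 51 and 50 reads. Its gene rank, counted from the strongest peak down over all genes, was 89.5, 77, 77 and 75. Egr1 reached 19.7, 23.0, 17.6 and 23.2, Jund 20.8, 25.02, 20.3 and 21.6, and Ier2 26.8, 16.9, 19.2 and 26.2. Dusp1 followed with 14.2, 13.8, 12.1 and 11.3. Zfp36, at 10.9, 10.2, 8.80 and 10.3, and Fos, at 9.29, 10.2, 6.05 and 8.75, were the weakest of the 7. The 2 control libraries lay above the 2 auxin libraries at Fos and Dusp1, and the conditions overlapped at the other 5 genes. The difference between conditions in prometaphase was not tested. These peaks rest on few reads: the weakest, Fos in auxin replicate 1, had 10 reads with a 95% exact Poisson interval of 4.80 to 18.4. Such intervals cover counting error only.

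**Figure D1:**
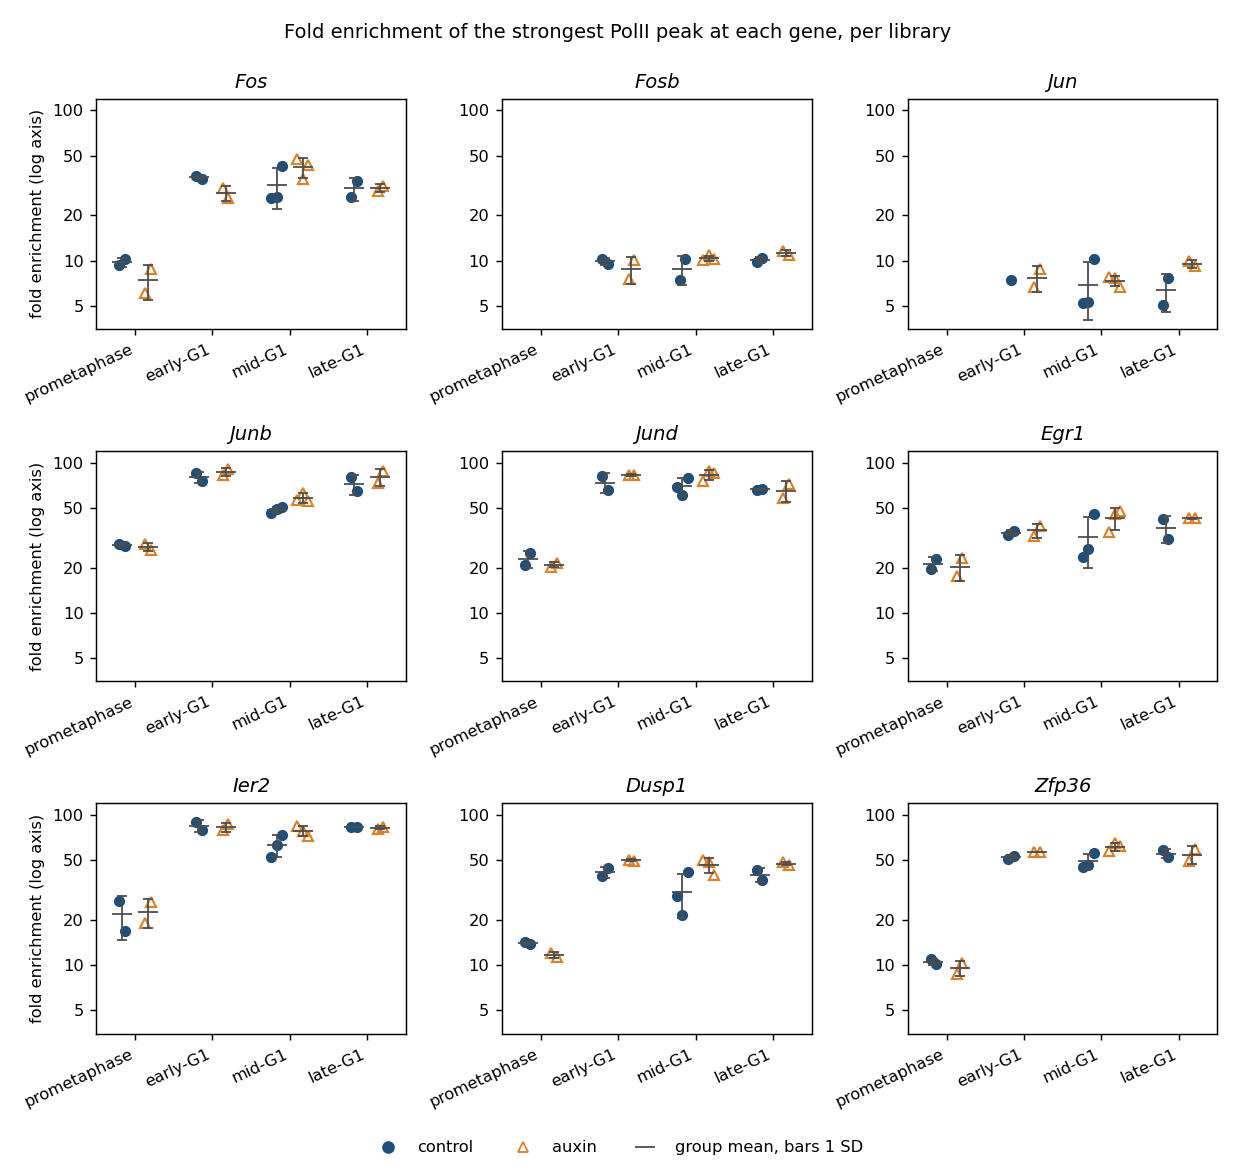
Fold enrichment of the strongest PolII peak at each gene (log axis) by stage, filled circles for control and open triangles for auxin libraries, with the group mean and 1 SD where a group has 2 or more values. Fos, Junb, Jund, Egr1, Ier2, Dusp1 and Zfp36 have a value in all 18 libraries, and Fosb and Jun only after mitosis, at 11.6 or less. Atf3 had no peak and is not drawn.

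The strongest peaks were narrow in prometaphase and, at Fos, Junb, Jund, Ier2 and Zfp36, wider in each of the 14 post-mitotic libraries. In prometaphase the strongest peak was 199 to 306 bp wide at Zfp36, 229 to 307 bp at Fos, 425 to 486 bp at Dusp1, 534 to 688 bp at Egr1, 537 to 863 bp at Jund, 549 to 664 bp at Ier2 and 588 to 919 bp at Junb. After mitosis it reached 7117 bp at Zfp36, 8069 bp at Ier2 and 8619 bp at Junb, in each case more than the whole window. At Zfp36, Ier2 and Junb these widest peaks may include the upstream peaks named above. It was 377 to 660 bp at Fos, 585 to 1131 bp at Egr1 and 433 to 2183 bp at Dusp1, and the ranges of Egr1 and Dusp1 overlapped those of prometaphase.

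The share of the window under peaks was compared between early-G1 and prometaphase with limma over the 11964 genes that had a peak in at least 2 of the 18 libraries. All 9 members with a value rose, beside 84.7% of all genes tested, so the count itself is close to the background and what differs among the members is the size. Fosb and Jun, with no peak in prometaphase, could only rise, as could the genes without one that are counted in the 84.7%. Zfp36 had 4.64%, 3.07%, 3.52% and 4.73% of its window covered in prometaphase, and 75.5% and 91.6% in control and 54.4% and 77.6% in auxin libraries of early-G1. The rise was 70.8 ± 7.63 percentage points (SE, adjusted p = 8.8e-06). Junb went from 46.2%, 25.5%, 34.9% and 14.3% to 96.1%, 100%, 95.7% and 94.7%, a rise of 66.4 ± 6.12 points (adjusted p = 3.0e-06). Junb was covered almost end to end 1 h after release, and at neither gene did a prometaphase library overlap an early-G1 one. Of the 2 kb upstream of Junb, 5.5% to 8.1% lay under peaks in prometaphase and 84.7% to 100% in early-G1.

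Ier2 was the most widely covered member in prometaphase, at 60.4%, 60.6%, 49.1% and 29.4%, and reached 100%, 100%, 98.5% and 98.8% (a rise of 49.4 ± 3.34 points, adjusted p = 3.4e-07). Each prometaphase share includes an upstream peak with its summit at −1382 to −1516 bp. Jund rose by 48.5 ± 7.29 points (adjusted p = 9.1e-05), from 17.6% to 32.1% up to 62.9% to 85.2%. Of the 2 kb upstream of Jund, 0% lay under peaks in each prometaphase library and 15.75% to 67.25% in early-G1. The rise was 22.3 ± 3.39 points for Dusp1 (adjusted p = 9.8e-05) and 20.8 ± 2.85 for Egr1 (adjusted p = 4.7e-05). Fosb (10.2 ± 1.23 points, adjusted p = 1.9e-05) and Jun (8.35 ± 2.79, adjusted p = 0.016) started from no peak at all. Their share could therefore only rise, and these limma p-values are no evidence for its direction. The median change was 22.3 points over the 9 members and 12.6 over all genes tested.

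Fos rose least, by 3.10 ± 1.08 points (adjusted p = 0.019). Peaks covered 3.43%, 4.16%, 3.10% and 3.52% of the window in prometaphase and 9.14%, 6.24%, 5.25% and 5.99% in early-G1. The 9.14%, of early-G1 control 1, includes a second peak of 229 bp and 10 reads with its summit 539 bp past the start, beside a promoter peak of 446 bp. With the depth of each library as a covariate, Fos (3.48 ± 1.5 points, adjusted p = 0.061) and Jun (7.28 ± 3.88, adjusted p = 0.12) no longer passed. Over all genes tested, 8195 rose with this covariate and 10129 without it. Every prometaphase library was shallower than every early-G1 one, so depth and stage cannot be fully told apart in this comparison. Without early-G1 control 1, Fos (2.38 ± 1.16 points, adjusted p = 0.079) and Jun (6.27 ± 2.92, adjusted p = 0.069) also missed the threshold, and Fos did so without early-G1 auxin 2 or prometaphase control 1 (2.92 points and adjusted p = 0.053 for each).

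**Figure D2:**
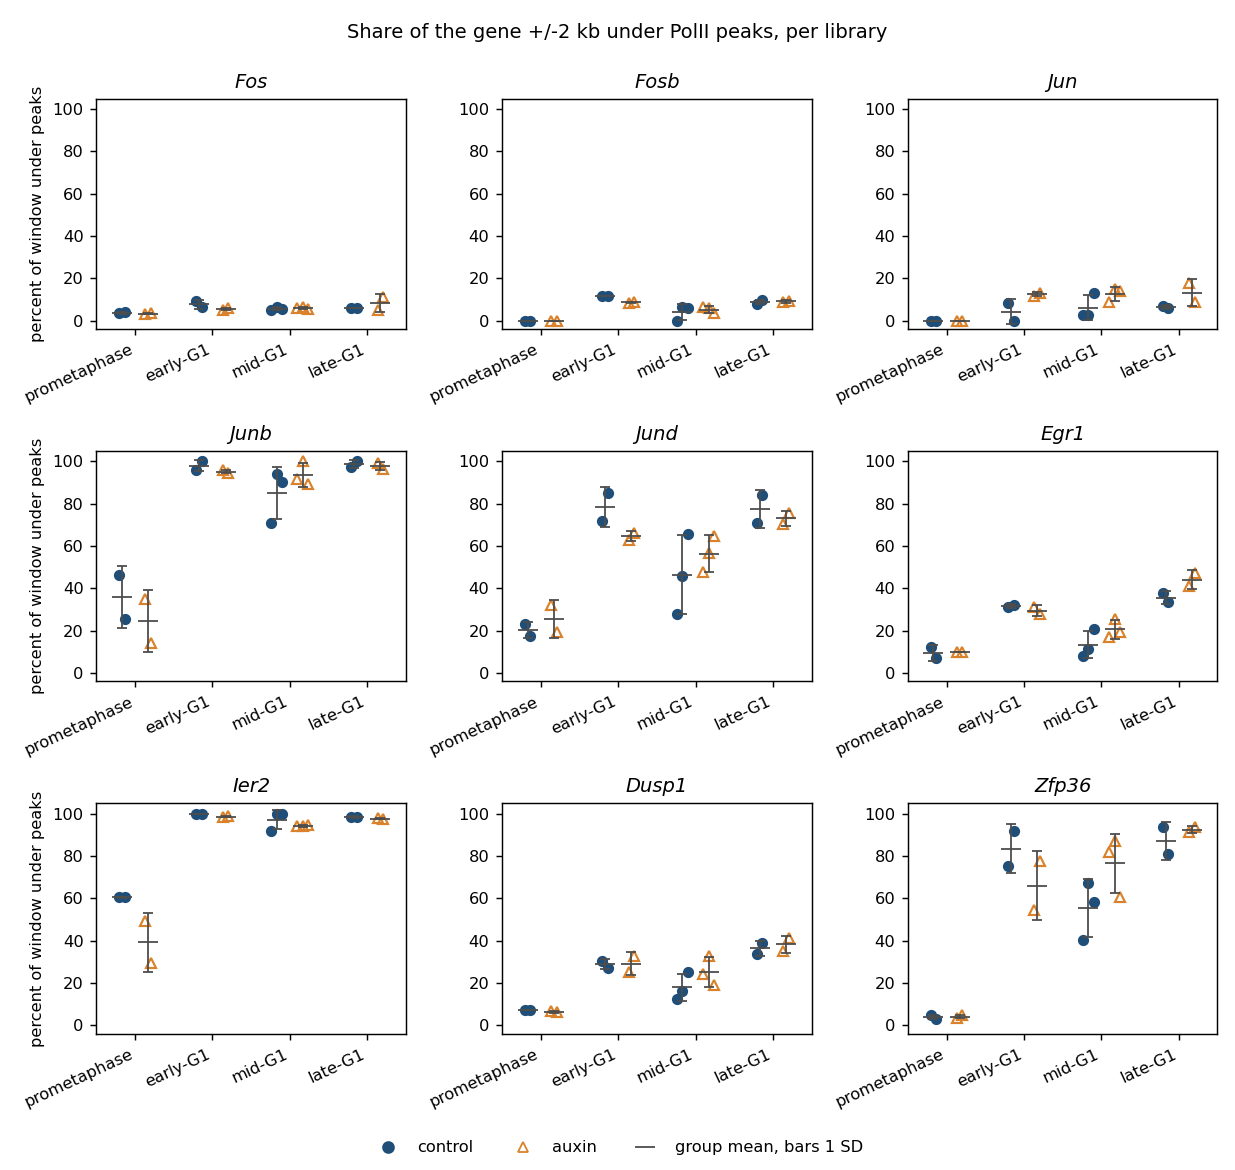
Share of the gene with 2 kb at either end that lies under PolII peaks, in percent, by stage and library (filled circles control, open triangles auxin, bars 1 SD around the group mean). Junb and Ier2 lie at 71.0% or higher in every post-mitotic library, while Fos stays between 5.11% and 11.3%.

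The narrow Fos peak was a lasting feature. After mitosis the fold enrichment at the Fos promoter was 36.6 and 35.1 in control and 30.6 and 26.0 in auxin libraries of early-G1, 25.9, 26.5 and 42.8 in control and 47.8, 35.1 and 43.3 in auxin libraries of mid-G1, and 26.4 and 34.1 in control and 29.0 and 31.7 in auxin libraries of late-G1. The stages overlapped, and control lay above auxin without overlap in early-G1 alone. The summit lay 14 to 55 bp past the start in the 14 post-mitotic libraries, in untranslated exon sequence downstream of the TATAAA shown above. No library had a peak in the 2 kb downstream of the Fos gene, and 6.91% to 15.8% of the gene body was covered after mitosis. By median rank Fos stood above 81.1% of the 10042 genes with a peak in all 14 libraries, and by median covered share (6.07%) above 28.0% of them, with a median over those genes of 15.4%. Egr1, next to it in rank, covered a median of 29.4% and Dusp1 28.9%.

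Fosb and Jun were weak at every stage. The strongest Fosb peak had a fold enrichment of 7.42 to 11.6 and the strongest Jun peak 5.06 to 10.2, from 16 to 38 and 8 to 24 reads. At Fosb the promoter peak, 12 to 80 bp past the start, was found in 12 post-mitotic libraries. An intragenic peak with its summit 1.16 to 1.93 kb past the start was found in 13, and in late-G1 control 3 it was the strongest peak of the gene. A further peak beyond the gene end, 8.64 to 8.79 kb past the start, was found in 7. At Jun the peaks covered 2.80% to 53.4% of the 2 kb upstream and 0% to 6.37% of the gene in the 13 libraries with a peak, and the strongest summit lay at −1082 to 38 bp from the start with a median of −361. A peak lay over the Jun start in 9 of 14 libraries, and none of the 18 had one downstream of the gene.

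At Jund the annotated start and the PolII summit were apart. In all 18 libraries the strongest summit lay 1223 to 1332 bp past the 5′ end of the gene, which is 4 to 113 bp past the start of its second annotated transcript at position 73222857. A window of 300 bases around that second start had 70.7% GC and 38 CpG, and held TGACGTCA at −223 to −216 from it, while the window of the first start had 46.7% GC and 3 CpG. The level there was high at all stages: the fold enrichment was 66.0 to 83.4 in early-G1, 60.8 to 88.7 in mid-G1 and 58.1 to 72.5 in late-G1. The covered share of the Jund window was 28.0%, 45.9% and 65.6% in mid-G1 control and 47.6%, 56.6% and 64.9% in mid-G1 auxin libraries, against 62.9% to 85.2% in early-G1 and 70.6% to 84.0% in late-G1. Of the mid-G1 values the lowest belongs to the shallowest library.

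**Figure D3:**
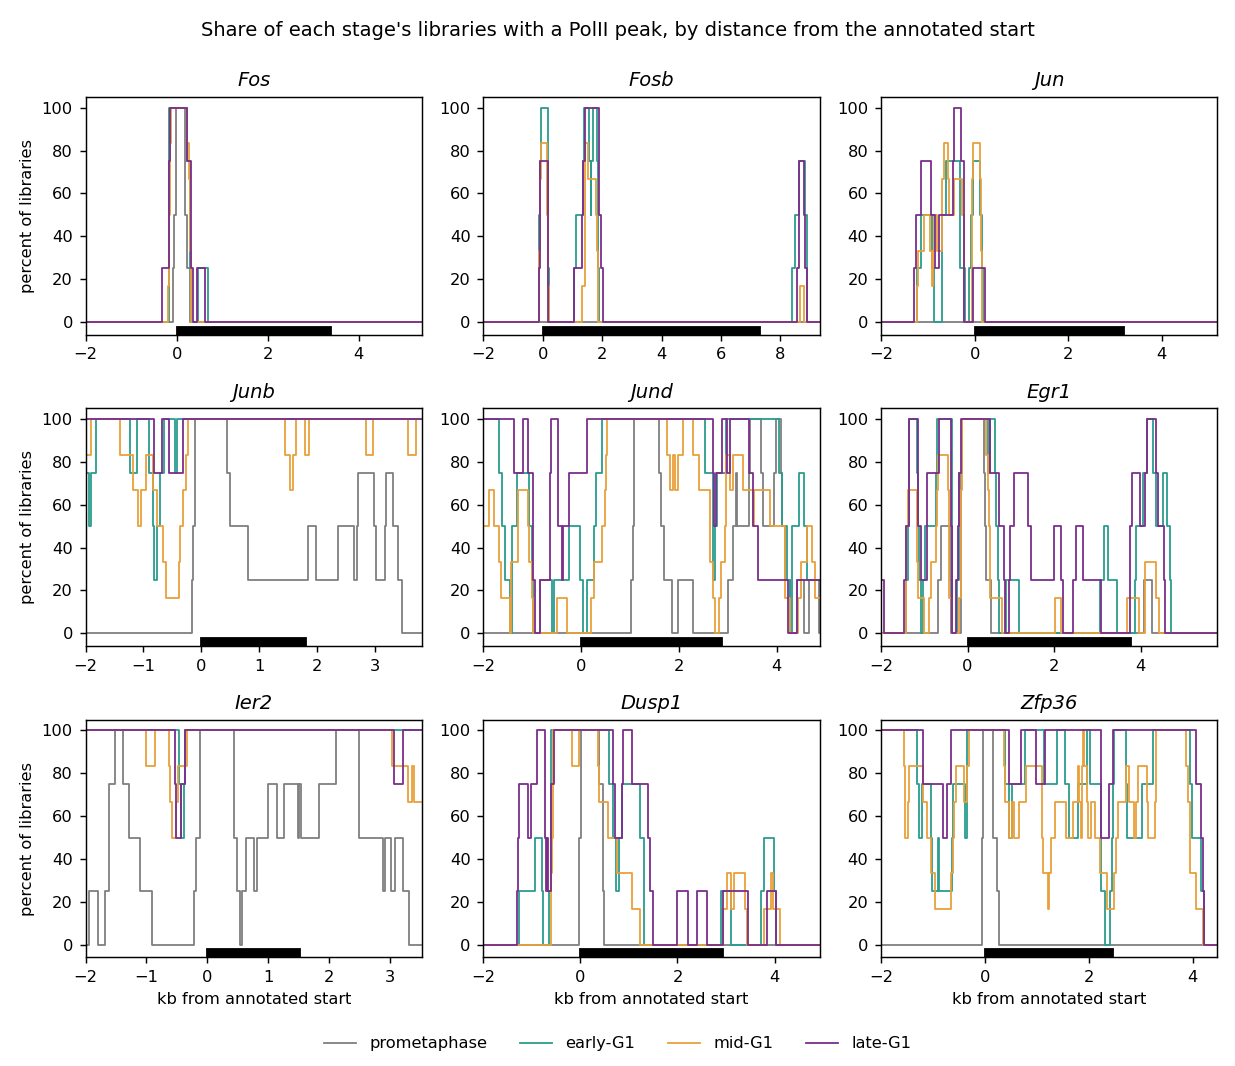
Share of the libraries of each stage (percent) with a PolII peak at each distance in kb from the annotated start, transcription running left to right, with the gene as a black bar at the base of each panel. The strongest peak of Fos stays at the start in all stages, the summit of Jund lies 1.22 to 1.33 kb inside the annotated gene, and Junb and Ier2 are covered on both sides after mitosis.

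Within the 14 post-mitotic libraries the order of the genes by median rank was Ier2 (104), Jund (149), Junb (199), Zfp36 (411), Dusp1 (796), Egr1 (1593) and Fos (2016). Neighbors at the top were not separated: Ier2 ranked above Jund in 9 of 14 libraries and Jund above Junb in 7. Junb ranked above Zfp36 in 10. The clear step lay between Zfp36 and Dusp1, with Zfp36 above in 14 of 14. Dusp1 ranked above Egr1 in 11 and Egr1 above Fos in 9, with 1 tie.

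Stages of G1 were compared on −log2 of the gene rank, where a positive difference is a move toward the top of the list, with limma over the 10042 genes with a peak in all 14 libraries. Of the 10 genes, 7 could be tested, and Fosb, Jun and Atf3 could not. From early-G1 to mid-G1, 2 of the 7 fell and none rose, beside 6.96% of all genes that fell. The ranks of Junb were 97.5, 106, 103.5 and 57.5 in early-G1 and 268, 394.5, 626, 442.5, 388.5 and 356 in mid-G1, with no overlap. The difference was −2.17 ± 0.36 (SE, adjusted p = 0.0047). For Ier2 the ranks were 70, 62, 129 and 72 in early-G1 and 214, 186, 216, 111, 170 and 168 in mid-G1, which overlap in 1 auxin library (−1.12 ± 0.19, adjusted p = 0.0055). From mid-G1 to late-G1 both rose again, 2 of 7 beside 3.78% of all genes, Junb to ranks of 95.5, 300, 129.5 and 65 (1.68 ± 0.36, adjusted p = 0.023) and Ier2 to 89, 64, 97 and 79 (1.09 ± 0.19, adjusted p = 0.010). The rise of Junb missed the threshold without late-G1 auxin 2 (1.43 ± 0.40, adjusted p = 0.088) or mid-G1 auxin 1 (1.64 ± 0.40, adjusted p = 0.051).

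The reads under these summits did not fall with the ranks. The Junb pileup was 220, 248, 205 and 230 reads in early-G1, 114, 211, 207, 210, 239 and 224 in mid-G1, and 238, 239, 211 and 231 in late-G1, the 114 coming from the shallowest library. What rose in mid-G1 was the local background that the fold enrichment is taken over. At Junb it was 1.08 to 1.17 times the genome-wide background of the same library in early-G1, 1.82 to 2.12 times in all 6 mid-G1 libraries and 1.13 to 1.34 times in late-G1. At Ier2 it was 1.00 in early-G1 and late-G1 and 1.04 to 1.42 in mid-G1. Set over the genome-wide background instead, the pileup of Junb differed by −0.03 ± 0.18 (log2, mid-G1 minus early-G1, adjusted p = 0.97) and that of Ier2 by 0.02 ± 0.18 (adjusted p = 0.98). From mid-G1 to late-G1 the differences were −0.07 ± 0.18 and −0.09 ± 0.18 (adjusted p = 0.999 for each). Neither call held on this measure. Its scale is compressed at the top, since duplicates had been removed and the Junb and Ier2 pileups were 43.8% to 77.4% and 40% to 80.7% of the highest of their list, so a difference between stages could be understated. All libraries of a stage were called against 1 input, so the input of mid-G1 and the stage cannot be told apart in the rank. The same holds for every comparison between stages, on rank or covered share, and their p-values hold no spread between inputs. Over all 10042 genes, 6.86% had a local background above 1.5 times the genome-wide level in mid-G1, 6.46% in early-G1 and 7.52% in late-G1.

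**Figure D4:**
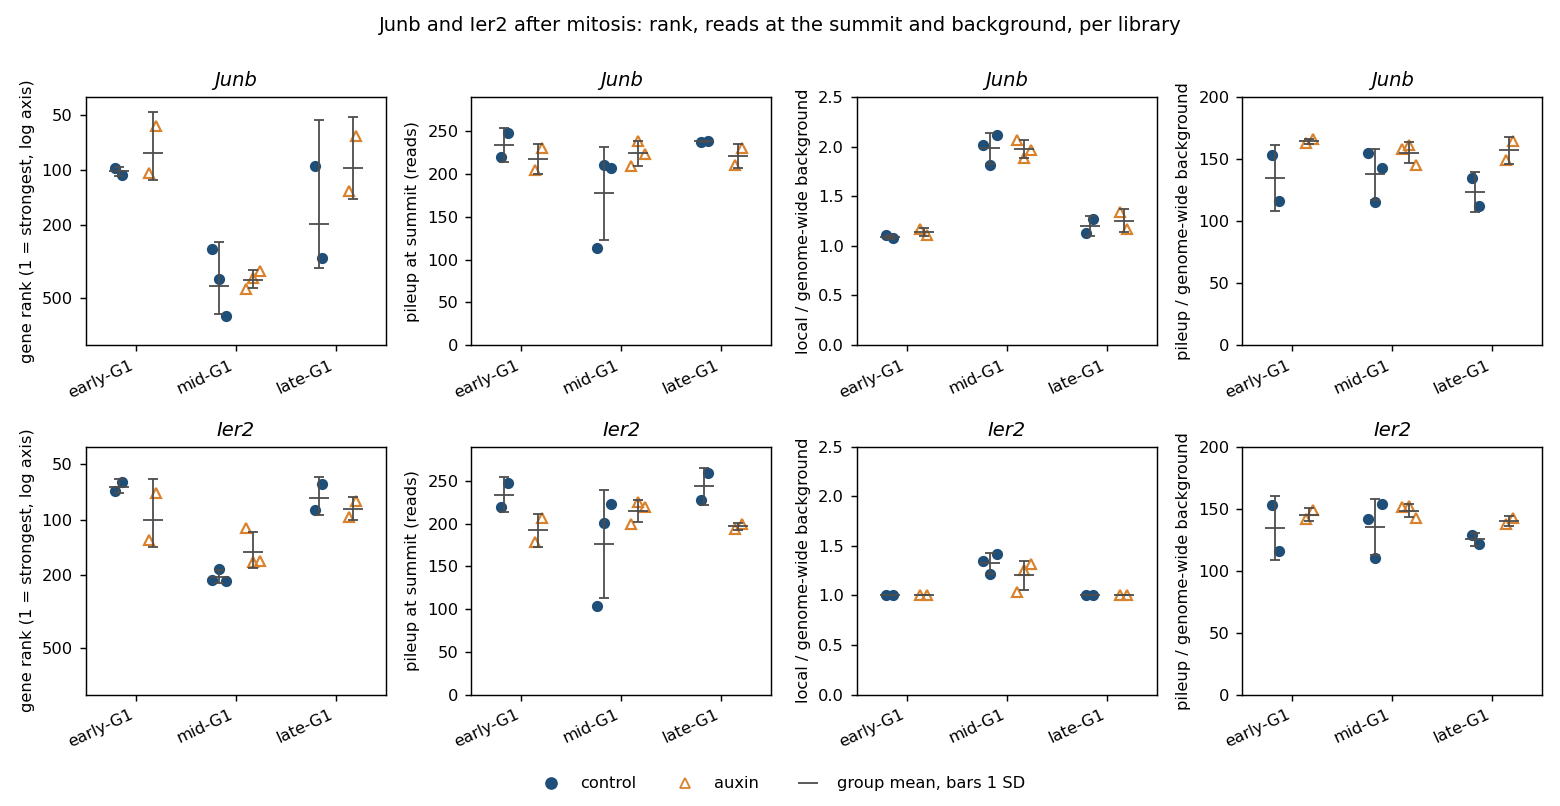
Junb (top) and Ier2 (bottom) in the 14 post-mitotic libraries, showing from left to right the gene rank (log axis, strongest at the top), the pileup at the summit in reads, the local over the genome-wide background, and the pileup over the genome-wide background, with filled circles for control, open triangles for auxin and bars of 1 SD around the group mean. The mid-G1 ranks of Junb (268 to 626) lie below those of early-G1 (57.5 to 106), its local background is 1.82 to 2.12 times the genome-wide one in mid-G1, and the last column shows no such step.

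Fos moved the other way from early-G1 to mid-G1 (1.10 ± 0.37) and did not pass (adjusted p = 0.091). Its ranks were 1892, 1757.5, 3701.5 and 4731 in early-G1 and 1087.5, 2140, 1173.5, 734.5, 2724.5 and 826.5 in mid-G1, which overlap. It passed with a trend in the variance (1.10 ± 0.36, adjusted p = 0.049). Without mid-G1 auxin 2 it also passed, at 1.40 ± 0.25 (adjusted p = 0.0093), and from mid-G1 to late-G1 it then fell by 1.26 ± 0.25 (adjusted p = 0.023). The remaining 4 genes, Jund, Egr1, Dusp1 and Zfp36, changed by −0.35 to 0.85 from early-G1 to mid-G1.

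Between early-G1 and late-G1 none of the 7 genes passed the limma test on rank, beside 10.8% of all genes. None had an unadjusted p under 0.05, beside 2670 of all 10042 genes. Egr1 had the largest difference (1.11 ± 0.59, adjusted p = 0.27), with ranks of 2494.5, 1737.5, 3196.5 and 1908.5 in early-G1 and 673, 5095.5, 630.5 and 557 in late-G1. The rank of 5095.5 comes from late-G1 control 3, the deepest library, and without it the difference was 1.84 ± 0.43 (adjusted p = 0.027). On the covered share Egr1 was the only one of the 9 members called, beside 6.47% of all genes that rose. Its share was 31.1%, 32.2%, 31.3% and 27.7% in early-G1, 8.19%, 11.4%, 20.8%, 17.2%, 25.5% and 19.2% in mid-G1, and 37.9%, 33.4%, 41.0% and 47.4% in late-G1. The 3 stages did not overlap, and the mid-G1 values lay lowest. The rise from early-G1 to late-G1 was 9.32 ± 2.85 points (adjusted p = 0.043), and it missed the threshold in 11 of 18 fits that left out 1 library, namely any of the early-G1 and prometaphase libraries, late-G1 control 2, late-G1 auxin 2 or mid-G1 auxin 1. Without late-G1 auxin 2 it was 7.72 ± 3.15 (adjusted p = 0.15), and in a window of 1 kb on either side of the start 3.57 ± 7.99 (adjusted p = 0.89).

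Dusp1 and Zfp36, the genes whose products end the response, did not pass in covered share between early-G1 and late-G1. Within G1 their lowest values lay in mid-G1 control 1, the shallowest library. The Dusp1 window was covered at 25.4% to 32.9% in early-G1, 12.3% to 32.7% in mid-G1 and 33.9% to 41.1% in late-G1 (late-G1 minus early-G1 8.30 ± 3.39 points, adjusted p = 0.11). For Zfp36 it was 54.4% to 91.6%, 40.3% to 87.0% and 80.8% to 93.8% (15.1 ± 7.63, adjusted p = 0.19). At both genes mid-G1 overlapped early-G1. The Zfp36 summit lay 23 to 92 bp past the start over the 18 libraries and the Dusp1 summit 36 to 179 bp past the nearest annotated start.

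CTCF depletion was compared as auxin minus control, averaged over the 3 post-mitotic stages. None of the 7 genes passed the limma test on rank, beside 0.747% of all genes, and 1 had an unadjusted p under 0.05, beside 1015 of all 10042 genes. That gene was Dusp1 (1.05 ± 0.44, adjusted p = 0.45), with control ranks of 1558 and 741 in early-G1, 814.5, 3525.5 and 1307 in mid-G1 and 624 and 3548.5 in late-G1, and auxin ranks of 776.5 and 743, 635, 949.5 and 1041.5, and 426 and 442.5. The auxin ranks were the better ones in late-G1 and overlapped the control ranks elsewhere. Over the 7 genes the change ran from −0.09 to 1.05 with a median standard error of 0.30. Within single stages none of the 7 passed, beside 0.129% of all genes called in early-G1, 0.229% in mid-G1 and 0.259% in late-G1. None of the 7 had an unadjusted p under 0.05 there, beside 449, 839 and 926 of all 10042 genes in these stages. The test of whether the auxin effect differed between stages called none of the 7 either, beside 0.0398% of all genes. In it 0 of the 7 had an unadjusted p under 0.05, beside 570 of all 10042 genes. Egr1 in late-G1 became a call only without late-G1 control 2 (3.10 ± 0.67, adjusted p = 0.036), which leaves control 3 as its single control.

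On the covered share none of the 9 members passed for auxin, beside 0.276% of all genes, and 1 had an unadjusted p under 0.05, beside 1343 of all 11964 genes. That member was Jun, with 7.19 ± 2.15 points more in auxin libraries (adjusted p = 0.25). Jun was covered at 8.30% and 0% in early-G1 control and 11.8% and 13.3% in early-G1 auxin libraries, 2.80%, 2.59% and 12.9% against 8.72%, 14.8% and 13.9% in mid-G1, and 7.15% and 5.79% against 17.7% and 8.83% in late-G1. The auxin libraries lay above the control libraries of their stage in early-G1 and late-G1, and overlapped them in mid-G1. A missed threshold does not show that control and depleted cells were alike.

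The genes whose rank followed the mean of the 7 members most closely over the 14 libraries were Slc20a1 (Pearson r = 0.861), Sept2 (0.825), Magi1 (0.811), Mospd1 (0.800) and Xiap (0.799). They are the 5 highest of 10042 genes over 14 points that share libraries and depth, and are given as a description.

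Among 38 other immediate early genes, 21 had a peak in all 14 post-mitotic libraries, 12 had none in any and 13 had one in all 4 prometaphase libraries. Over all genes these shares were 45.2%, 9965 of 22208 genes, and 5.14%. Those without a listed peak included Egr3, Nr4a1, Klf2, Klf4, Dusp2, Dusp6 and Arc. Strongly occupied ones included Btg1, an antiproliferative factor (median rank 51.3), Mcl1, which protects from apoptosis (92.5), and Gadd45b, a stress response gene (118). In covered share from prometaphase to early-G1, 22 of 25 tested rose, close to the 84.7% of all genes (median change 28.5 points, 12.6 over all genes). From early-G1 to mid-G1, 1 of 21 rose in rank (Sgk1, a serum and glucocorticoid induced kinase, 2.60 ± 0.36, adjusted p = 0.0019) and 1 fell (Gadd45b, −2.35 ± 0.25, adjusted p = 5.5e-04), with a median change of 0.18 against 0.01 over all genes. Of all 10042 genes, 488 rose and 699 fell. As at Junb, the pileup of Gadd45b over the genome-wide background differed little (0.14, adjusted p = 0.78), and that of Sgk1 by 0.33 (adjusted p = 0.42). From early-G1 to late-G1, 5 of 21 rose (Ier3, Zfp36l2, Gadd45b, Sgk1 and Pim1, by 0.97 to 2.08) and Mcl1 fell (−2.20 ± 0.35, adjusted p = 0.0042), with a median of 0.15, beside 10.8% of all genes called in either direction. With the pileup over the genome-wide background none of these 6 passed: the 5 differed by 0.00054 to 0.47 (lowest adjusted p = 0.26) and Mcl1 by −0.22 (adjusted p = 0.58). From mid-G1 to late-G1, 4 of 21 rose, beside 3.78% of all genes, and 1 fell, beside 348 of all 10042 genes, with a median of −0.13. None passed with the pileup (adjusted p = 0.999 for each). In covered share 8 of 25 rose from early-G1 to late-G1, beside 6.47% of all genes, and none fell, among them Ier3 (23.3 ± 3.45 points, adjusted p = 0.0013), Klf6 (26.3 ± 7.39, adjusted p = 0.030) and Gadd45b (18.8 ± 3.72, adjusted p = 0.0062). None of the 21 passed the limma test for auxin on rank, beside 0.747% of all genes. Of the 21, 5 had an unadjusted p under 0.05, beside 1015 of all 10042 genes.

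Of 12 upstream regulators, 9 had a peak in all 14 post-mitotic libraries, beside 45.2% of all genes, and each had one in at least 12. In all 4 prometaphase libraries 2 (Elk4 and Map2k2) had one, beside 5.14% of all genes. Srf itself, the factor that binds the CArG box, ranked at a median of 7606, well down the list, and Creb1 at 1512. In covered share 10 of 12 rose from prometaphase to early-G1, close to the 84.7% of all genes. Creb1 fell in covered share from early-G1 to late-G1 (−10.2 ± 3.05 points, adjusted p = 0.040), as did 1602 of all 11964 genes tested. None of the 9 passed the limma test for auxin on rank, beside 0.747% of all genes. Of the 9, 2 had an unadjusted p under 0.05, beside 1015 of all 10042 genes.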

How the data were processed

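PolII ChIP-seq peak lists of 18 libraries were analysed; the 4 input samples entered only through the authors' peak calling. Per the submitters' processing notes and the study's methods, the authors aligned reads to mm9 with Bowtie2 2.2.9, removed reads of low mapping quality, duplicates and blacklisted intervals (SAMtools 0.1.19, bedtools 2.27.1), and ran MACS2 2.1.0 on every library by itself at a q-value of 0.01, with the stage's input as control. The deposited columns are fold enrichment (a ratio to the local background), −log10 p-value, −log10 q-value and a whole-number score that was not used; the summit offset gave the summit position. A region below the threshold is absent from a list, and covered length grows with depth.

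Fold enrichment and −log10 p-value of each deposited peak were solved for the pileup at the summit, which came out whole (within 0.05 reads) for 100% of the peaks. The background value found most often in a list served as genome-wide background. Read totals were not used here. Each gene was given the strongest peak within 2 kb of it (overlap of at least 1 bp) and ranked among 22208 genes, genes without a peak last. −log2 rank and covered percent were fitted with limma 3.58.1 (R 4.3.3) on group means, with Benjamini-Hochberg adjustment over all genes and calls under 0.05. These scripts were tested on simulated data. Python 3.11.15, numpy 2.4.6 and scipy 1.17.1 did the rest. The members and lists were chosen with earlier results of these data known. By the rule for named genes, the members, the 5 genes most like their mean rank and genes of the 2 lists are named; named list genes are examples. Alternatives were another scale for the rank, other windows, a stricter q-value, a replicate block and each library left out. Results of 1 gene of the upstream regulator list are not reported here.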

Additional observations from a re-analysis of the deposited data

How the results depend on the processing

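The auxin contrast on rank and on covered percent and the auxin-by-stage test kept 0 members called under every alternative run, except that within single stages the count without 1 library was 0 to 1. The 7 genes detected in prometaphase and the 6 with a peak over the start also kept their counts. From early-G1 to mid-G1 the 2 calls on rank became 1 in auxin libraries only (Junb), 1 in control libraries only (Ier2), and 0 with the pileup over genome-wide background and with ranks by −log10 p, 3 with a trend in the variance (Fos added), and 2 to 3 without 1 library. From mid-G1 to late-G1 they became 1 in auxin libraries only, 0 in control libraries only, 0 with the pileup, 0 by −log10 p and 1 with a trend in the variance, and 1 to 3 without 1 library. With the pileup the change of Ier2 reversed to 0.0192 from early-G1 to mid-G1, and those from mid-G1 to late-G1 reversed to −0.0895 for Ier2 and −0.0683 for Junb; the denominator of that measure is the genome-wide in place of the local background. By −log10 p the changes kept their sign (Junb −0.995, adjusted p = 0.062, and Ier2 −0.35, adjusted p = 0.16, from early-G1 to mid-G1). The late-G1 minus early-G1 count on rank was 0 to 1 without 1 library. On covered percent the early-G1 minus prometaphase count was 7 to 9 without 1 library, and the Egr1 call from early-G1 to late-G1 became 0 in a window of 1 kb around the start and 0 to 1 without 1 library.

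Replicate numbers are shared between control and auxin groups. Same-numbered libraries deviated together with r of 0.0599, 0.131 and 0.299 in mid-G1, 0.0736 in early-G1 and 0.00543 in late-G1 on rank and 0.353 in prometaphase on covered percent, and in mid-G1 not every library correlated best with its own number, so the numbers were not taken as pairs. With a replicate block the auxin calls over all genes fell from 75 to 9 on rank and from 33 to 0 on covered percent, the auxin-by-stage calls from 4 to 0, and the Egr1 call on covered percent to 0 (8.53 ± 3.10 points, adjusted p = 0.093); no other member call changed. Calls over all genes moved most with the pileup over genome-wide background, from 1187 to 98 (early-G1 to mid-G1), 728 to 29 (mid-G1 to late-G1) and 1084 to 207 (early-G1 to late-G1), and with control libraries only, to 37, 0 and 22. For late-G1 minus early-G1 on covered percent they were 2376, 3995 with depth as covariate and 547 around the start. The causes were not tested. Depth limits the weakest peaks, of 8 to 20 reads, at Jun, Fosb and the prometaphase promoters of Fos and Zfp36.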
